A study of Mus musculus with 4 samples.

Results

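The transcripts described here belong to 5 of the 31053 genes counted: the neutrophil-recruiting chemokines Cxcl1, Cxcl2, Cxcl3 and Cxcl5 and their receptor Cxcr2. They were listed by symbol, with earlier results of these data known, and the rule itself uses no measured value. CXC chemokines of this family are small secreted proteins that bind CXCR2, a G-protein-coupled receptor carried by neutrophils, and draw these cells out of the blood into inflamed tissue. Macrophages, epithelial cells and fibroblasts make them on stimulation by interleukin 1, tumour necrosis factor or bacterial products, and neutrophils that have arrived make more. In pancreatic tumours the axis is known for bringing in neutrophils that can restrain T cells.

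The cells came from pancreatic tumours of C57BL/6 mice that carried orthotopic B6KPC3 tumours, and were enriched for CD45, the surface marker of blood-derived cells, by flow sorting. All mice had tumours of 7 days when treatment began. The vehicle group received 1% carboxymethyl cellulose in water and the AT38 group AT38 in the same vehicle at 30 mg/kg per day, by 2 intraperitoneal injections a day for 7 days. AT38 is known here only by its code name, and the series' title names nitrosative stress and cytotoxic T lymphocytes as the study's subject. Each group had 2 libraries of the 10x 3' kit, each a pool of 4 mice, so a p-value here speaks only of how far such pools differ. No mouse was sequenced alone, the age of the mice was not given, and only 1 tumour line was used.

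The 4 libraries held 24294215 to 34386076 unique molecular identifiers (UMIs, counted RNA molecules), and 14254 of 18001 barcodes were kept as cells. Clusters were named from marker genes: 4556 neutrophils, 1649 mononuclear phagocytes (macrophage-like and monocyte-like), 1589 dendritic cells, 2861 T cells, 1253 B cells, 385 NK cells, 222 epithelial cells, 110 mast cells or basophils and 49 innate lymphoid cells. All these names mean "-like", and 1580 cells (11.1%) stayed unnamed. The marker genes of each class held none of the 5 genes, and these were also kept out of the clustering. Between 87.5% and 90.3% of the kept cells of a library had a UMI of Ptprc, which encodes CD45. Libraries shared 24 barcode sequences, 14 of them among kept cells. In neutrophils the summed level of 5 acinar enzyme genes was 46.0 UMIs per 1000000 (CPM) in vehicle 2 and 1458 to 2608 CPM in the other 3 libraries.

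The 4 chemokine genes lie on the plus strand of chromosome 5 (GRCm38, GENCODE M21), within 146579 bases: Cxcl5 at chr5:90759360-90761624, Cxcl3 at chr5:90786103-90789600, Cxcl1 at chr5:90891241-90893115 and Cxcl2 at chr5:90903871-90905938. Cxcr2 lies on the plus strand of chromosome 1, at chr1:74153989-74161246. The transcripts of Cxcl2 and Cxcl3 shared 165 runs of 30 bases (7.79% of those of Cxcl2, 4.67% of those of Cxcl3), and no other pair shared any. The leading transcript of each gene held 82 of the shared runs. They lay 820 to 1049 bases from the 3' end for Cxcl2 and 731 to 960 for Cxcl3, while the kit reads near the 3' end. The places of the other shared runs were not measured. A read inside a shared run cannot be placed in one of the pair.

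RefSeq (GRCm38.p6) gave a start site for 4 of the 5 genes, and the 150 bases before it are shown because 3 of the chemokine genes are described together below. Capitals mark matches, on either strand, of the longest run of letters that the windows of Cxcl1, Cxcl2 and Cxcl3 share (GGGAATTTCCC, 11 letters) and of a TATA-like box (ATAAAAG). The shared run was found in these windows and not set beforehand, and it has the form of a kappaB site, the letters that NF-kappaB proteins are known to bind. The windows are Cxcl1 chr5:90891095-90891244, Cxcl2 chr5:90903749-90903898, Cxcl3 chr5:90785951-90786100 and Cxcr2 chr1:74153844-74153993, all on the plus strand.
Cxcl1: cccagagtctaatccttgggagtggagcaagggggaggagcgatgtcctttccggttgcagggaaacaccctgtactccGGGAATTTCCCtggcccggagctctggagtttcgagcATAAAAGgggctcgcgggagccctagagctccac
Cxcl2: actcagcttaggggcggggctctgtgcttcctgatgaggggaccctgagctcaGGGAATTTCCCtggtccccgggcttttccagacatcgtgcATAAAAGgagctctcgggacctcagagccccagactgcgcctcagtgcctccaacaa
Cxcl3: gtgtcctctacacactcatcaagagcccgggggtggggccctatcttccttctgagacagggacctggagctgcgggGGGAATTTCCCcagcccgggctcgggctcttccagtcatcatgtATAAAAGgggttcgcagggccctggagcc
Cxcr2: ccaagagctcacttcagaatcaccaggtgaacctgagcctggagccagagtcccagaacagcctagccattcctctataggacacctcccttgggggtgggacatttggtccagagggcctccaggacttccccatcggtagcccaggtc
The shared run began 71 bases before the RefSeq start of Cxcl1, 97 before that of Cxcl2 and 73 before that of Cxcl3. The window of Cxcr2 held no match. Of 32851 RefSeq promoter windows of this length, 10 (0.0304%) held it. The TATA-like letters stood 34, 57 and 29 bases before the RefSeq starts of Cxcl1, Cxcl2 and Cxcl3, and were in 990 windows (3.01%). RefSeq starts differ from the GENCODE starts given above. The Cxcl2 window ends at 90903898, past the GENCODE start at 90903871, so its last bases lie inside that gene model. Counted from the GENCODE start, both Cxcl2 distances are smaller. A match is a description of the letters and not of binding.

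Among the classes Cxcl2 was highest in neutrophils. The vehicle libraries had 36854 and 37897 CPM there, and the AT38 libraries 37618 and 34755. The mean of the 4 libraries was 36781 ± 1421 CPM (SD, n = 4), or 94.6 ± 6.36 UMIs per cell. Phagocytes followed at 8019 ± 1116 CPM and dendritic cells at 1337 ± 230, and the libraries of these 3 classes did not overlap. Below them the libraries of neighbouring classes overlapped, down to B cells at 159 ± 42.1 CPM. Of 630065 Cxcl2 UMIs in kept cells, neutrophils held 67.6%, phagocytes 22.6% and dendritic cells 5.14%.

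Cxcl3, the nearest relative of Cxcl2 among the 5 in its transcript, was also highest in neutrophils, at 1424 ± 645 CPM over the 4 libraries, followed by phagocytes at 278 ± 186. These ranges did not overlap, while those of every lower pair of neighbours did. Innate lymphoid cells followed at 135 ± 121 CPM, on 28 UMIs. Of 23833 Cxcl3 UMIs, neutrophils held 72.2% and phagocytes 22.3%.

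Cxcl1 had another source. It was highest in phagocytes, at 732 and 617 CPM in the vehicle libraries and 336 and 451 in the AT38 libraries, against 175 ± 42.3 CPM in neutrophils and 47.1 ± 29.0 in dendritic cells. Within the phagocytes, macrophage-like cells ranged from 362 to 839 CPM and monocyte-like cells from 96.7 to 245. Macrophage-like cells held 64.5% of the 13883 Cxcl1 UMIs and neutrophils 14.6%. A further source was found among 37 cells with collagen genes (Col1a1, Col1a2, Col3a1 and Dcn), split from a mixed unnamed cluster and fibroblast-like by their markers. Their Cxcl1 level was 40.6 CPM in the 6 cells of vehicle 1 and 319 in the 10 cells of vehicle 2, from 4 and 104 UMIs. It was 678 in the 15 cells of AT38 1 and 1313 in the 6 cells of AT38 2, from 184 and 137 UMIs. These few cells held 3.09% of the Cxcl1 UMIs.

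Cxcl5, which epithelial cells are known to make, was found in epithelial cells and in few others. It stood at 72.9, 52.4, 31.0 and 31.1 CPM there, from 183, 104, 53 and 39 UMIs. Epithelial cells held 83.7% of its 453 UMIs and the fibroblast-like cells 9.71%. By library the fibroblast-like cells held 0.518%, 11.1%, 32.9% and 0% in vehicle 1, vehicle 2, AT38 1 and AT38 2. Their level was 28.1 ± 25.4 CPM with vehicle and 51.6 ± 72.9 with AT38 (SD, n = 2). The 5 epithelial cells with the most Cxcl5 held 83.0% to 88.5% of it in each library. Mast cells or basophils, next in order among the named classes, had 1 UMI. NK cells had none in any library, which allows up to 5.36 to 10.8 CPM (3 counts per library, counting error only).

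The receptor gene was a neutrophil gene. The vehicle libraries had 220 and 275 CPM of Cxcr2 and the AT38 libraries 248 and 290, and neutrophils held 88.1% of its 3379 UMIs. The next 2 classes, mast cells or basophils (10.3 ± 7.49 CPM, 8 UMIs) and phagocytes (9.51 ± 1.90 CPM), did not overlap with neutrophils.

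**Figure D1:**
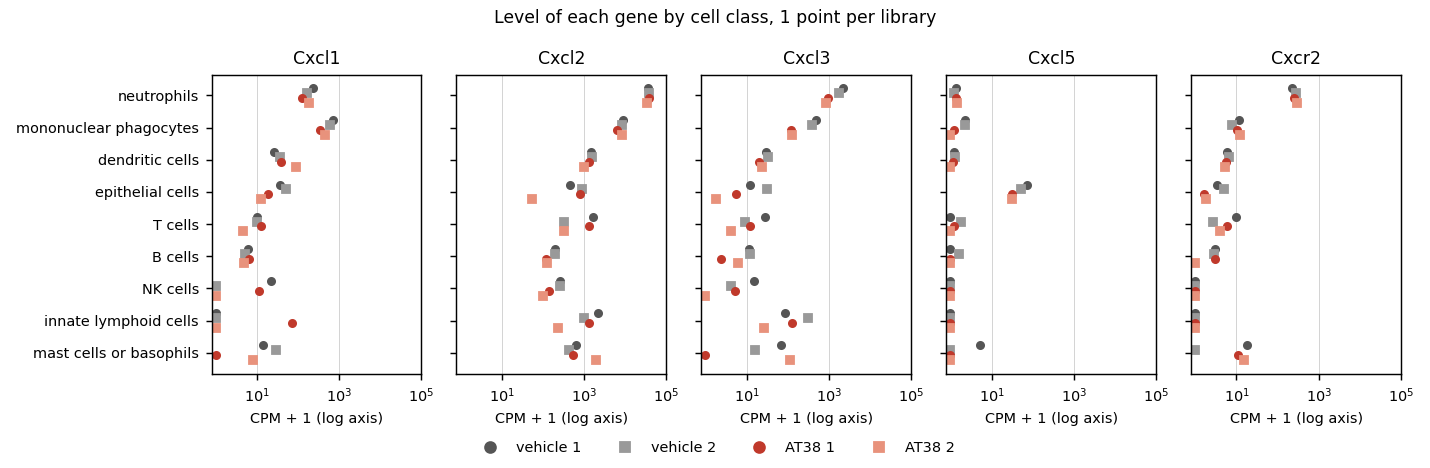
Each panel is 1 gene, each row a cell class and each point a library, with CPM + 1 on a log axis. Neutrophils lie highest for Cxcl2, Cxcl3 and Cxcr2, phagocytes for Cxcl1 (336 to 732 CPM) and epithelial cells for Cxcl5 (31.0 to 72.9 CPM).

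**Figure D2:**
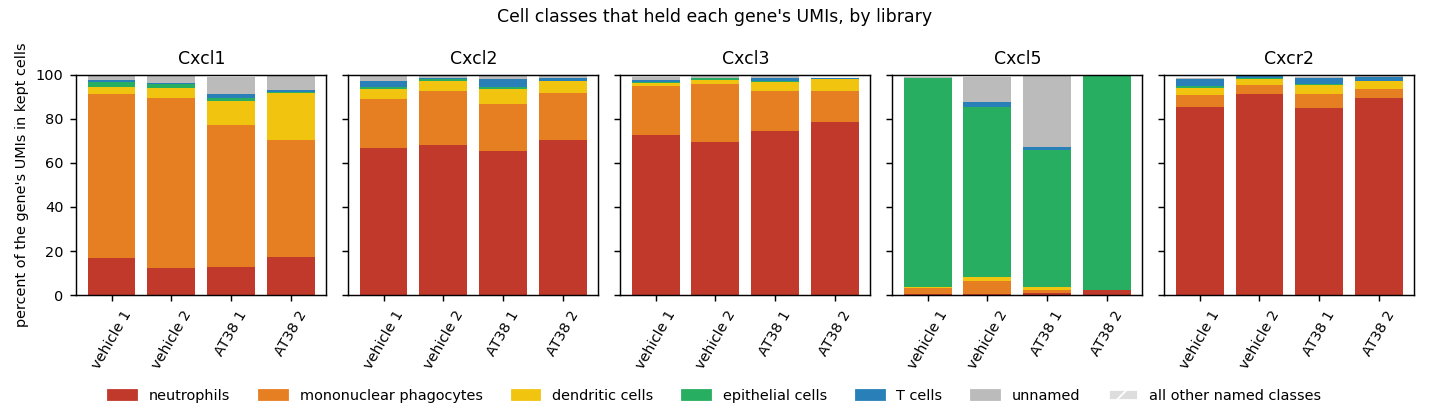
Bars give the percent of a gene's UMIs in kept cells that each class held, 1 bar per library, with the 5 genes in 5 panels. Neutrophils held 65.2% to 70.5% of Cxcl2, and epithelial cells 62.4% to 97.5% of Cxcl5.

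Lymphocytes are not known as a main source of these chemokines, and their values stand here as the background of the droplets. B cells had 196, 194, 118 and 127 CPM of Cxcl2 in vehicle 1, vehicle 2, AT38 1 and AT38 2. In B cells 5.62 Cxcl3 UMIs were counted per 100 Cxcl2 UMIs with vehicle (95% interval 3.88 to 7.90), and in neutrophils 5.12. With AT38 the ratios were 2.25 (0.817 to 4.96) and 2.47. The Cxcl3 ratios of phagocytes were 5.03 and 1.66, so those of both myeloid classes lay inside the intervals of the B cells. For Cxcl1 the B cells had 2.41 UMIs per 100 of Cxcl2 with vehicle (1.34 to 4.00) and 4.12 with AT38 (2.03 to 7.49). These intervals held neither the ratios of neutrophils (0.509 and 0.425) nor, with vehicle, that of phagocytes (7.78), while the 5.27 of phagocytes with AT38 lay inside. All these intervals are exact and cover counting error only. T cells stood higher, at 1666, 325, 1309 and 327 CPM of Cxcl2. In the T cell cluster led by Ccl1 and Tnfsf8, 18, 3, 27 and 6 barcodes with at least 50 Cxcl2 UMIs held 92.9%, 58.0%, 90.1% and 86.8% of the cluster's Cxcl2. Those barcodes had a median of 7879 to 10894 UMIs against 3869 to 5051 in the rest of the cluster, and a median of 1 to 94.5 UMIs of the neutrophil genes S100a8 and S100a9 against 0. Without that cluster T cells had 298 ± 87.8 CPM of Cxcl2 with vehicle and 206 ± 69.7 with AT38 (SD, n = 2).

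AT38 was then compared with vehicle in neutrophils, the class that carries the receptor. Cxcl3 fell there, from 2195 and 1714 CPM with vehicle to 950 and 835 with AT38, and the groups did not overlap. The fitted log2 fold change was −1.25 ± 0.13 (SE), or 0.421 of the vehicle level (edgeR quasi-likelihood test, adjusted p = 0.00287, 2 against 2 libraries). Cxcl2 passed with a small difference of −0.16 ± 0.04 (edgeR adjusted p = 0.0327), although its libraries overlapped. Of the 4 genes tested in neutrophils these 2 were called lower, where 3.24% of 8514 genes tested were called lower (276) and 1.28% higher (109). Scaled by library size alone, the median of all genes lay 0.12 above 0, 320 genes were called higher and 170 lower, and Cxcl2 was at −0.05 (edgeR adjusted p = 0.616). The Cxcl2 call was also lost with DESeq2 (adjusted p = 0.323) and with vehicle 1, vehicle 2 or AT38 2 left out (edgeR adjusted p = 0.246, 0.349 and 0.240). It held under 3 of 15 alternative settings.

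Cxcl1 in neutrophils stood at 230 and 162 CPM with vehicle and at 129 and 182 with AT38, so the groups overlapped (−0.45 ± 0.25, edgeR adjusted p = 0.450). It passed with AT38 2 left out (−0.74, edgeR adjusted p = 0.0012). Cxcr2 stood at 248 ± 39.2 CPM with vehicle and 269 ± 29.9 with AT38 (SD, n = 2). Its log2 difference was 0.00 ± 0.12 (edgeR adjusted p = 0.998). Cxcl5 had 4 UMIs in all neutrophils and was not tested.

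Other features of the neutrophils moved with Cxcl3. Of 10 neutrophil marker genes, 5 fell (S100a8, S100a9, Csf3r, Hdc and Clec4d), beside 3.24% of all genes tested, and their summed level was 76669 and 82674 CPM with vehicle and 68307 and 68651 with AT38. The 8 macrophage markers summed to 388 and 539 CPM with vehicle and 593 and 424 with AT38, and none of them passed. Neutrophils were 35.7% and 35.9% of the kept cells in the vehicle libraries and 27.7% and 27.3% in the AT38 libraries. The part of these differences in the Cxcl3 result was not tested.

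**Figure D3:**
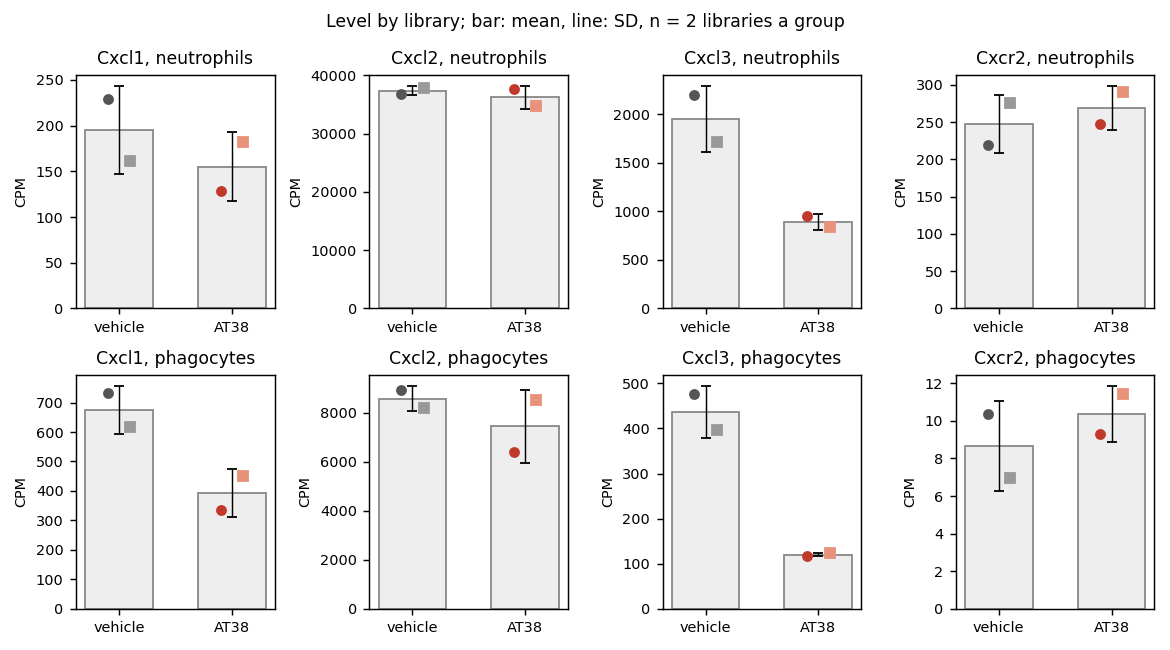
Points are the CPM of each library, bars the mean and lines the SD over 2 libraries a group, for 4 genes in neutrophils (top) and phagocytes (bottom). Cxcl3 is the gene whose groups lie apart in both classes, at 1714 CPM or more with vehicle against 950 or less with AT38 in neutrophils, and at 396 or more against 123 or less in phagocytes.

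The neutrophils fell into clusters that differed in these genes. Cluster 3, led by Acod1, Asprv1 and Slfn4, and cluster 4, led by Lrg1 and Csf3r, had the most Cxcr2, at 297 to 489 CPM and 275 to 438 CPM over the 4 libraries. Cluster 6, led by Siglecf, Il23a and Il1a, had 160 to 220 CPM of Cxcr2 but 43945 to 45832 CPM of Cxcl2. Cluster 10, led by the heat shock genes Hspa1b and Hspa1a, had the least Cxcr2 of the 5 clusters tested by mean level, at 71.3 to 135 CPM. Cluster 23, led by Cd177 and Lcn2, which mark younger neutrophils, had 92.8 to 196 CPM of Cxcr2. Cluster 24, 58 cells with the granule genes Ngp, Camp and Ltf, had 136 to 221 CPM and was too small to test.

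In these clusters Cxcl3 fell in 3, 4 and 6. In cluster 3 it went from 3820 and 3498 CPM with vehicle to 1720 and 1764 with AT38 (log2 −1.09 ± 0.11, edgeR adjusted p = 7.9e-08, with 1.34% of 4188 genes called lower). In cluster 4 it went from 2320 and 1802 CPM to 1004 and 1018 (−1.04 ± 0.13, edgeR adjusted p = 1.4e-05, with 0.621% of 4346 genes called lower). In cluster 6 it went from 1137 and 915 CPM to 482 and 376 (−1.30 ± 0.14, edgeR adjusted p = 0.00068, with 0.399% of 7023 genes called lower). Cluster 10 stood at 2336 and 1526 CPM with vehicle and 2637 and 1465 with AT38, which overlapped (0.06 ± 0.28, edgeR adjusted p = 0.980). Cluster 23 stood at 928 and 627 CPM against 786 and 472 (−0.24 ± 0.25, edgeR adjusted p = 0.960). Whether the effect differs between clusters was not tested.

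Cxcl1 fell in cluster 4, from 257 and 180 CPM to 102 and 139 (−0.87 ± 0.22, edgeR adjusted p = 0.0409). In AT38 2 all 44 Cxcl1 UMIs of that cluster came from 4 cells. Cxcl1 also fell in cluster 23 (−3.30 ± 0.41, edgeR adjusted p = 0.00086), where 0.0309% of 3232 genes were called lower. There all its UMIs came from 2 or 3 cells in each library, 37 and 34 UMIs with vehicle and 5 and 3 with AT38. Cxcr2 passed in no cluster, with the smallest adjusted p in cluster 3, at 297 and 347 CPM with vehicle and 419 and 489 with AT38 (0.47 ± 0.14, edgeR adjusted p = 0.0660).

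The mix of clusters shifted beside these levels. Cluster 6, low in Cxcl3, was 25.1% and 29.4% of the neutrophils with vehicle and 43.7% and 43.4% with AT38, and cluster 4 went from 33.2% and 37.4% to 23.3% and 20.2%. With the clusters weighted alike in every library, Cxcl3 averaged 1821 ± 243 CPM with vehicle and 980 ± 124 with AT38 (SD, n = 2), a log2 ratio of −0.89 against −1.13 in the cells as sampled. Cxcr2 then averaged 236 ± 32.4 CPM with vehicle and 287 ± 26.8 with AT38, a log2 ratio of 0.28 against 0.12 as sampled, with no test. The weighting was chosen after seeing the data.

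**Figure D4:**
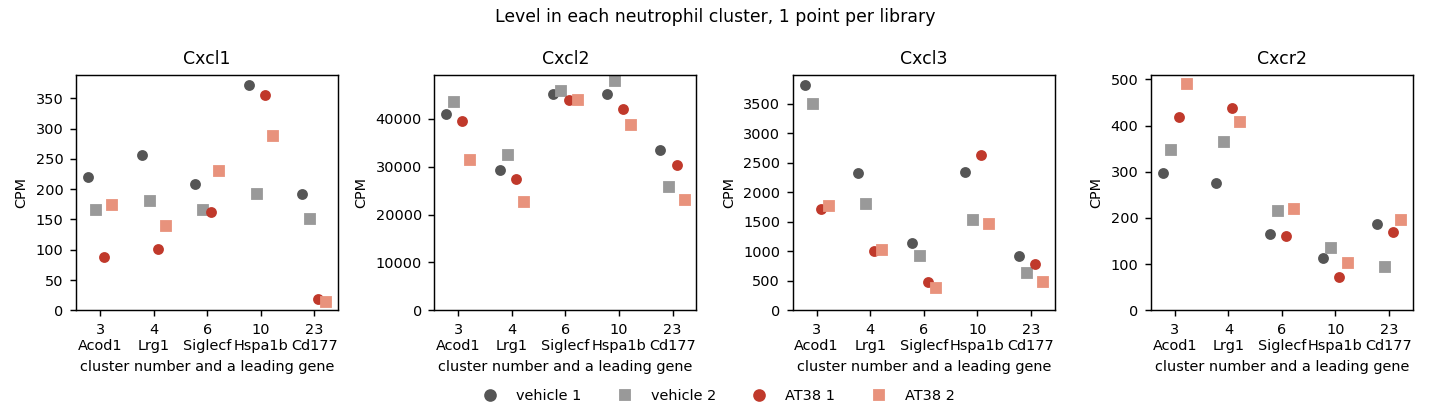
Each panel is 1 gene, the x axis gives 5 neutrophil clusters by number and a leading gene, and points are the CPM of the 4 libraries. For Cxcl3 the AT38 libraries lie below the vehicle libraries in clusters 3, 4 and 6, and the groups overlap in clusters 10 and 23.

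In phagocytes, the largest source of Cxcl1, Cxcl3 again fell. It stood at 477 and 396 CPM with vehicle and 117 and 123 with AT38, and the groups did not overlap. The log2 fold change was −1.87 ± 0.12 (edgeR adjusted p = 0.00025), or 0.274 of the vehicle level. It was the 1 gene called of 4 tested, where 0.327% of 10698 genes tested were called lower (35) and 0.645% higher (69). With vehicle 1 left out 10 genes were called in either direction and with vehicle 2 left out 42, against 104, and Cxcl3 passed in both (edgeR adjusted p = 0.00409 and 0.00105). Cxcl1 stood at 732 and 617 CPM with vehicle and 336 and 451 with AT38 and did not pass (−0.78 ± 0.16, edgeR adjusted p = 0.0967). Its groups did not overlap, and it passed with DESeq2 (adjusted p = 0.00073) and with AT38 2 left out (edgeR adjusted p = 0.0041). Cxcl2 stood at 8947 and 8217 CPM against 6408 and 8506, which overlapped (−0.20 ± 0.14, edgeR adjusted p = 0.747).

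The 2 kinds of phagocyte were also taken apart. In macrophage-like cells Cxcl3 fell from 531 and 438 CPM to 129 and 156 (−1.78 ± 0.15, edgeR adjusted p = 0.00095, with 0.54% of 10548 genes called lower). In monocyte-like cells it stood at 155 and 236 CPM with vehicle and 76.0 and 24.2 with AT38 (−1.91 ± 0.55, edgeR adjusted p = 0.662). A few cells carried much of it: the 5 phagocytes with the most Cxcl3 held 29.0% to 41.2% of its UMIs in each library, and without them it was at −1.97 (edgeR adjusted p = 4.4e-05). 

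Neutrophil RNA in the phagocytes was measured beside this. The 10 neutrophil markers summed to 2598 and 3154 CPM in phagocytes with vehicle and to 2534 and 2804 with AT38, none of them at 0. Of these 10, Mmp9, which encodes a matrix metalloproteinase, fell (−2.57 ± 0.19, edgeR adjusted p = 0.00137). The other 9 did not pass, where 0.327% of 10698 genes tested were called lower. The median marker was in phagocytes at 5.98% and 5.54% of its neutrophil level with vehicle and 4.82% and 5.23% with AT38. Cxcl3 was at 21.7%, 23.1%, 12.3% and 14.7% in vehicle 1, vehicle 2, AT38 1 and AT38 2. The highest marker was above Cxcl3 in each library. It was Mmp9 with vehicle (21.9% and 24.9%) and Trem1 with AT38 (13.7% and 18.0%). Mmp9 itself stood at 260 and 370 CPM in phagocytes with vehicle and at 58.3 and 47.1 with AT38. In neutrophils it stood at 1189 and 1481 CPM against 1211 and 1264. S100a8 and S100a9, the markers highest in neutrophils, were in phagocytes at 1.83% to 3.09% of that level. The part of neutrophil RNA in the Cxcl3 of phagocytes was not tested. Macrophage markers summed to 6183 and 7445 CPM with vehicle and 9837 and 10795 with AT38. Of 8 of them Apoe, C1qa and C1qc rose, where 0.645% of all genes tested were called higher. Monocyte markers summed to 4223 and 4175 CPM against 3313 and 3540. Among 8, Ly6c2 and Ms4a4c were called higher and Fn1 lower, beside 0.645% and 0.327% of all genes tested. The part of this shift in the Cxcl3 result was not tested.

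The AT38 effects in the 2 myeloid classes were compared directly, with each library giving both. The fall of Cxcl3 was 0.63 ± 0.13 log2 units smaller in neutrophils than in phagocytes (edgeR interaction test, adjusted p = 0.0172), where 0.807% of 10776 genes (87) differed. With vehicle 1, vehicle 2 or AT38 2 left out, 52, 44 and 36 genes differed. It did not pass with vehicle 1, vehicle 2 or AT38 1 left out (edgeR adjusted p = 0.168, 0.311 and 0.155), and passed without AT38 2 (edgeR adjusted p = 0.0121). For Cxcl1 the difference was 0.34 ± 0.14 (edgeR adjusted p = 0.307), for Cxcl2 0.06 ± 0.15 (edgeR adjusted p = 0.939) and for Cxcr2 −0.31 ± 0.27 (edgeR adjusted p = 0.738).

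No member passed in the remaining classes tested, where few genes did by edgeR. The counts were 0 of 11139 genes in dendritic cells, 2 of 10080 in epithelial cells (0.0198%), 0 of 10416 in T cells and 3 of 8216 in B cells (0.0365%). NK cells, mast cells or basophils and innate lymphoid cells were not tested. At an unadjusted p under 0.05, 652 genes in dendritic cells and 466 in T cells differed, and DESeq2 called 9 and 6. In dendritic cells Cxcl1 stood at 24.8 and 35.6 CPM with vehicle and 38.4 and 89.7 with AT38 (1.14 ± 0.53, edgeR adjusted p = 0.877). Within them it lay in the mature cells, which carry Ccr7 and Fscn1, at 50.4 and 75.8 CPM with vehicle and 116 and 229 with AT38 (1.52 ± 0.42, edgeR adjusted p = 0.9999). With AT38 1 left out, Cxcl1 passed in dendritic cells (1.66 ± 0.17, edgeR adjusted p = 9.0e-07), as did 496 genes in all. The share of all Cxcl1 UMIs held by dendritic cells was 3.8% ± 0.847 with vehicle and 16.2% ± 7.30 with AT38, and that of phagocytes 75.7% ± 1.74 and 58.6% ± 8.14 (SD, n = 2).

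In epithelial cells Cxcl5 stood at 72.9 and 52.4 CPM with vehicle and at 31.0 and 31.1 with AT38, from 70, 77, 40 and 35 cells (−0.91 ± 0.28, edgeR adjusted p = 0.837). The groups did not overlap, but the gene did not pass in this small class. Cxcl1 there stood at 35.0 and 50.4 CPM against 17.5 and 12.0 (−1.38 ± 0.33, edgeR adjusted p = 0.677). In B cells, the background class, Cxcl3 was at −1.87 ± 0.65 (edgeR adjusted p = 0.536) and Cxcl2 at −0.61 ± 0.16 (edgeR adjusted p = 0.396).

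Summed over all kept cells, 3 of the 5 genes fell with AT38, where 1.52% of 14514 genes tested were called lower (220) and 0.42% higher (61). With vehicle 1 or vehicle 2 left out, 96 and 181 genes were called in either direction, against 281. Cxcl3 went from 398 and 344 CPM to 122 and 113 (−1.66 ± 0.09, edgeR adjusted p = 0.00139). Cxcl1 went from 179 and 182 CPM to 96.8 and 111 (−0.80 ± 0.07, edgeR adjusted p = 0.0033), and Cxcl2 from 7294 and 7720 to 5518 and 5218 (−0.48 ± 0.07, edgeR adjusted p = 0.0146). The Cxcl2 call was lost without AT38 1 or AT38 2 (edgeR adjusted p = 0.069 and 0.149). Cxcl5 (−1.40 ± 0.42, edgeR adjusted p = 0.254) and Cxcr2 (−0.29 ± 0.14, edgeR adjusted p = 0.430) did not pass. These sums mix the share of each class with the level in its cells: the neutrophils' part of all kept UMIs was 13.2% and 13.9% with vehicle and 9.57% and 10.6% with AT38.

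**Figure D5:**
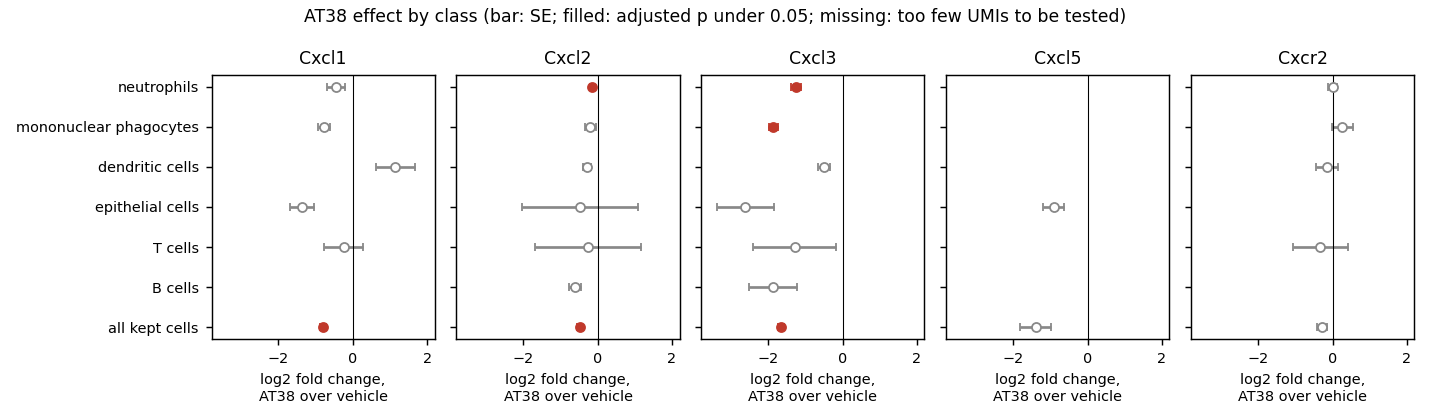
Points are the log2 fold change of AT38 over vehicle and lines its SE, by class (rows) and gene (panels); filled points passed at an adjusted p under 0.05. Cxcl3 passed in neutrophils (−1.25), phagocytes (−1.87) and all kept cells (−1.66), and Cxcr2 in no class.

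The share of cells with a transcript showed how the level was spread. Cells with at least 1000 UMIs were thinned to 1000, and cells with fewer were left out. This kept 963 of 1038, 1566 of 1697, 902 of 974 and 792 of 847 neutrophils in vehicle 1, vehicle 2, AT38 1 and AT38 2. Of these neutrophils, 43.4% and 38.1% had a Cxcl3 UMI in the vehicle libraries and 23.8% and 24.5% in the AT38 libraries. The exact binomial 95% intervals were 40.2% to 46.6%, 35.7% to 40.6%, 21.1% to 26.8% and 21.5% to 27.6%. The exact two-sided permutation test over libraries gave p = 0.333, the smallest that 2 against 2 allows. Neutrophils with Cxcl3 held a mean of 5.67 and 5.06 of its UMIs with vehicle and 4.27 and 3.95 with AT38, lower in both AT38 libraries than in either vehicle library. Unthinned, the shares were 47.9% ± 4.67 with vehicle and 30.3% ± 0.742 with AT38. In B cells, the background, 1.61%, 1.38%, 0.373% and 0.658% of thinned cells had a Cxcl3 UMI. The median depths before thinning were 2024 to 2396 UMIs in neutrophils and 2626 to 3594 in B cells.

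In phagocytes 17.8% and 14.4% of thinned cells had a Cxcl3 UMI with vehicle and 6.33% and 6.87% with AT38. For Cxcl1 the phagocyte shares were 24.6% and 24.3% with vehicle and 19.5% and 17.6% with AT38, against 0% to 0.746% in B cells. Cxcl2 was near saturation in neutrophils, with a UMI in 97.9% to 98.8% of thinned cells, and in 10.5% to 18.3% of B cells. A Cxcr2 UMI was found in 18.9% and 23.1% of thinned neutrophils with vehicle and 21.1% and 23.6% with AT38, and in none of the thinned B cells.

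Receptor and ligand were also counted in the same cells. Among thinned neutrophils with a Cxcr2 UMI, 47.8%, 39.9%, 28.9% and 21.9% also had a Cxcl3 UMI in vehicle 1, vehicle 2, AT38 1 and AT38 2. Among those without one the shares were 42.4%, 37.6%, 22.5% and 25.3%. The sign of the difference was not the same in all libraries, and no test was made.

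Other genes of the axis were taken from 4 lists. The first held other ligands and receptors of the family: in neutrophils 2 of 5 could be tested and neither passed by edgeR or had an unadjusted p under 0.05, Pf4 at 12.9, 12.4, 10.4 and 8.76 CPM (−0.51 ± 0.28) and Cxcr1, the second receptor, at 7.33, 13.7, 7.21 and 10.96 CPM (−0.37 ± 0.35). In phagocytes Ppbp, a platelet chemokine beside Cxcl5 on chromosome 5, stood at 2.77, 6.33, 0.207 and 0.714 CPM (−3.51 ± 0.75, edgeR adjusted p = 0.0726), and Pf4 did not pass.

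The signalling partners of CXCR2 gave no call. None of 13 passed in neutrophils (median log2 difference −0.06, against 0.01 over all genes) or in phagocytes (0.01, against 0.00 over all genes) by edgeR or DESeq2. In each class 1 of them had an unadjusted edgeR p under 0.05. Over all genes tested, 1454 of 8514 in neutrophils and 1045 of 10698 in phagocytes had such a p. In neutrophils the smallest p was that of Pik3cg, the catalytic subunit of the kinase PI3K-gamma, at 51.6 and 46.0 CPM with vehicle and 38.0 and 38.6 with AT38 (−0.46 ± 0.16, edgeR adjusted p = 0.107). The receptor kinase Grk2 (−0.20 ± 0.11), the G protein subunit Gnai2 (−0.08 ± 0.08) and the kinase adaptor Pik3r5 (0.16 ± 0.17) followed.

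Among inducers and regulators of CXC chemokine transcripts, 3 of 12 tested fell in neutrophils, 9 did not pass and none rose, where 3.24% of all genes tested were called lower (median −0.17, against 0.01 over all genes). All 3 are known NF-kappaB targets that act back on it. Tnfaip3, which encodes the ubiquitin-editing inhibitor A20, fell from 1617 and 1596 CPM to 1149 and 1168 (−0.59 ± 0.07, edgeR adjusted p = 3.6e-05). Nfkbia, the gene of the inhibitor I-kappaB-alpha, fell from 6800 and 6579 CPM to 5295 and 5794 (−0.39 ± 0.06, edgeR adjusted p = 0.00029). Nfkbiz, a nuclear cofactor that promotes some CXC chemokine genes, fell from 2915 and 3080 CPM to 2512 and 2491 (−0.38 ± 0.06, edgeR adjusted p = 0.00087). Rela, the gene of the NF-kappaB subunit p65, stood at 117 and 98.1 CPM against 89.7 and 97.7 and did not pass (−0.32 ± 0.12, edgeR adjusted p = 0.145). In phagocytes none of 14 passed by edgeR or DESeq2 (median 0.03, against 0.00 over all genes). An unadjusted edgeR p under 0.05 was found for 4 of them, beside 1045 of all 10698 genes tested. There Il1b stood at 3338 and 3188 CPM with vehicle and 2560 and 2699 with AT38 (−0.31 ± 0.08, edgeR adjusted p = 0.151), the adaptor Myd88 at 0.30 ± 0.12 and the cytokine Il17a, at 0.357 to 8.07 CPM, at −2.58 ± 0.65 (edgeR adjusted p = 0.134).

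The list of other genes for neutrophil recruitment, retention and adhesion had 8 of 11 tested called lower in neutrophils, 3 that did not pass and none called higher, where 3.24% of all genes tested were called lower (median −0.47, against 0.01 over all genes). DESeq2 called 6 of 10, beside 2.56% of all genes in either direction. The formyl peptide receptor gene Fpr2 fell from 569 and 562 CPM to 396 and 373 (−0.67 ± 0.09, edgeR adjusted p = 0.0001). The complement receptor gene C5ar1 fell from 736 and 735 CPM to 517 and 577 (−0.54 ± 0.09, edgeR adjusted p = 0.00062), and the selectin ligand gene Selplg from 366 and 407 to 289 and 314 (−0.47 ± 0.10, edgeR adjusted p = 0.0083). The 8 falls ranged from −2.06 to −0.28 on the log2 scale. In phagocytes DESeq2 called 2 of 12, beside 1.05% of all genes in either direction. By edgeR 1 of 12 fell there, where 0.327% of all genes tested were called lower. This was the integrin gene Itgam, at 467 and 430 CPM with vehicle and 248 and 260 with AT38 (−0.82 ± 0.10, edgeR adjusted p = 0.00723). Fpr2 was at −1.03 ± 0.19 (edgeR adjusted p = 0.0525) and the integrin gene Itgb2 at −0.30 ± 0.10 (edgeR adjusted p = 0.291). The shift in the neutrophil clusters given above moved beside these values, and its part in them was not tested.

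The genes whose levels followed each member most closely over the 9 classes were named from 5681 genes, by Pearson's r of log2(CPM + 10), as a description over points that share libraries. For Cxcl2 these were Ptgs2, which encodes the prostaglandin enzyme COX-2 (r = 0.979), Il1rn (0.977), Mmp9 (0.970), Mapkapk2 (0.965) and Slc16a3 (0.962). For Cxcl3 they were Zswim4 (0.967), Tarm1 (0.948), Ets2 (0.942), Cxcl2 (0.941) and Mmp9 (0.935). For Cxcr2 they were Stfa2l1 (0.994), Asprv1 (0.993), Fpr1 (0.993), AC110211.1 (0.992) and Gm20406 (0.992), all highest in neutrophils. Cxcl1 followed phagocyte genes, Ifi204 (0.997), Atp6v1b2 (0.982), the lysozyme gene Lyz2 (0.977), P2ry6 (0.969) and Klra2 (0.968). Cxcl5 followed genes highest in epithelial cells, Cavin3, Lgals2, Pcolce, Fam84a and Elf3 (r = 0.999 to 1.000). Every other class had a mean of 1.08 CPM of Cxcl5 or less, so these r values rest on the epithelial cells alone. The fibroblast-like cells were not among the 9 classes.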

How the data were processed

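Cells were counted with Cell Ranger 3.1.0 on mm10, per the submitters' processing notes, and the values used are the deposited UMI counts per gene and barcode, not normalized. Barcodes with under 200 genes or over 10% mitochondrial UMIs were dropped, as were likely doublets (0.8% per 1000 barcodes, scanpy 1.11.5), 683 in all; the caller's own threshold marked 8 (0.0444%). Cells were clustered on 2000 variable genes, 30 components and 15 neighbours (Leiden resolution 1), without the 5 genes. Clusters were named from marker lists, with thresholds set with the clusters in view. UMIs were summed per library and class and tested with edgeR 4.0.16 (quasi-likelihood, TMM scaling, low-count filter, Benjamini-Hochberg over all genes tested, threshold 0.05), and with DESeq2 1.42.0 as an alternative. The interaction fit held a term for each library. The SE of an edgeR log2 difference was derived from its test, as the size of the difference divided by the square root of the F statistic. The edgeR fit was also run on simulated counts for neutrophils and phagocytes, with the same preset spread between libraries for every gene. That run does not test the fit at the real spread between these pools. CPM is per 1000000 UMIs of the class in a library. Shares of cells carry exact (Clopper-Pearson) 95% intervals, which cover counting error only, as does the limit of 3 counts for a count of 0. Genes of the lists were named by the smallest p, 4 per list in neutrophils and 3 in phagocytes, and 2 of these genes are not reported here. The 5 genes and the lists were chosen with earlier results of these data known. The alternatives were other scalings, filters, cluster resolutions, doublet handling, single clusters, a replicate block and each library left out.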

Additional observations from a re-analysis of the deposited data

Results flagged for a closer look

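The AT38 effect on Cxcl3 differed between neutrophils and phagocytes by 0.63 on the log2 scale in a direct test of the difference (edgeR interaction, adjusted p = 0.0172). The effect was −1.25 in neutrophils and −1.87 in phagocytes, lower with AT38 in 2 of 2 libraries against each vehicle library in both classes. With 1 library left out the difference ranged from 0.48 to 0.76, and 3 of these 4 fits did not pass.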

How the results depend on the processing

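Cxcl3 was lower with AT38 and passed in 15 of 15 alternative settings in neutrophils (−1.42 to −1.06, highest adjusted p 0.00403) and in 15 of 15 in phagocytes (−1.999 to −1.72, highest adjusted p 0.00409), single clusters and kinds of phagocyte apart. For the values below that changed side or sign the cause was not tested, and all are log2 differences unless called counts of genes, by edgeR unless DESeq2 is named. Cxcl2 in neutrophils did not pass with DESeq2 (−0.17), Leiden resolution 0.5 (−0.16) or 2 (−0.26), at least 500 genes per cell (−0.16), at most 20% mitochondrial UMIs (−0.17), library size only (−0.046), the members among the clustering genes (−0.16), no doublet removal (−0.27), or in clusters 3, 4, 6, 10 and 23 alone (−0.27, −0.31, −0.086, −0.23 and −0.098). Cxcl1 in neutrophils passed in 3 of 15 settings, without a low-count filter (−0.45), without the 5 cells with the most UMIs (−0.67) and without AT38 2 (−0.74), and in clusters 4 and 23 alone (−0.87 and −3.30), and was above 0 in clusters 6 and 10 (0.037 and 0.14). Cxcl1 in phagocytes passed with DESeq2 (−0.78), without a filter (−0.79) and without those 5 cells (−0.81), and was at 0.17 in monocyte-like cells alone. Cxcl3 did not pass in clusters 10 (0.056) and 23 (−0.24) or in monocyte-like cells alone (−1.91), and with clusters at equal shares it was at −0.89 and Cxcr2 at 0.28. Cxcr2 in neutrophils, near 0, was below it with DESeq2 (−0.0033), Leiden resolution 0.5 (−0.0013) and 2 (−0.095), no doublet removal (−0.091), no filter (−0.0053), without the 5 cells (−0.023) and in clusters 6 and 10 (−0.040 and −0.50). In phagocytes Cxcr2 was at −0.21 without doublet removal and −0.031 without the 5 cells, and it did not pass in any setting. Other values that changed sign did not pass: Cxcl1 in epithelial cells (0.32, at most 20% mitochondrial UMIs), Cxcl1 in cDC2-like cells (−0.73), Cxcr2 in mature dendritic cells (0.47), Gnai2 in neutrophils (0.037, library size only), and Pf4 in phagocytes (0.012, 0.072 and 0.079 with the mitochondrial limit, the members among the clustering genes and no doublet removal).

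Counts of genes called went as follows. In neutrophils (385) they were 218 with DESeq2, 149 with Leiden resolution 2 and 88 without doublet removal. In phagocytes (104) they were 58 with Leiden resolution 0.5, 32 with at least 500 genes per cell and 424 without a filter. In dendritic cells (0) they were 9 with DESeq2, 3 with each of Leiden resolution 0.5, at least 500 genes and the members among the clustering genes, 1 with the mitochondrial limit, 2 with library size only or without doublet removal, and 132 without a filter. In epithelial cells (2) they were 7 with DESeq2, 0 with Leiden resolution 2, 5 with the mitochondrial limit and 89 without a filter. In T cells (0) they were 6 with DESeq2, 5 and 16 with Leiden resolution 0.5 and 2, 16 with at least 500 genes, 13 without doublet removal and 48 without a filter. In B cells (3) they were 5 with Leiden resolution 0.5, 11 with the mitochondrial limit, 15 without doublet removal and 90 without a filter. Over all kept cells (281) they were 467 with DESeq2 and 805 without a filter, and the interaction (87) gave 180 with library size only and 240 without a filter.

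Libraries of the 2 groups share replicate numbers, with a correlation of same-numbered deviations of −0.136 in neutrophils, −0.102 in epithelial cells, −0.0986 over all kept cells, 0.146 in phagocytes, 0.145 in dendritic cells, 0.177 in B cells and 0.273 in T cells. With 2 pairs, and no label that ties the numbers to a shared source, they were not taken as pairs. With the replicate number as a block, counts were 169 in neutrophils, 10 in dendritic cells, 6 in T cells, 30 in B cells and 107 over all kept cells, Cxcl2 did not pass in neutrophils (−0.17) or all kept cells (−0.48), and Pf4 in phagocytes was at 0.018. Pairing the numbers crosswise gave 34 genes in epithelial cells and 1 in B cells.

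With each library left out in turn, values ranged as follows: in neutrophils Cxcl1 −0.74 to −0.18, Cxcl2 −0.21 to −0.12, Cxcr2 −0.15 to 0.16, Cxcr1 −0.72 to 0.17 and Pik3r5 −0.0066 to 0.35; in phagocytes Cxcl1 −1.03 to −0.56, Cxcl2 −0.45 to 0.0084, Cxcr2 −0.029 to 0.55 and Pf4 −0.33 to 0.39; in T cells Cxcl1 −1.27 to 0.37, Cxcl2 −1.57 to 1.36 and Cxcr2 −1.20 to 1.23. Cxcl2 ranged from −3.63 to 0.44 in epithelial cells and from −0.52 to −0.44 over all kept cells. The difference between neutrophils and phagocytes ranged from 0.48 to 0.76 for Cxcl3, −0.22 to 0.33 for Cxcl2 and −0.70 to 0.19 for Cxcr2. Counts ranged from 6 to 61 in B cells, 0 to 12 in T cells, 96 to 320 over all kept cells, 0 to 496 in dendritic cells, 0 to 64 in epithelial cells, 10 to 108 in phagocytes and 36 to 88 for the interaction. A group left with 1 library is assumed to vary like the other. The epithelial class was not found with Leiden resolution 0.5, at least 500 genes per cell or the members among the clustering genes, so these were not run there. Depth limits Cxcl5, with 453 UMIs in all, and the small classes.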
